A study of Mus musculus with 12 samples.

Results

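The nuclei described here were those of mouse liver tissue that carried the deposited annotation Endothelial Cells and lay in cluster 3 of the study's clustering. They numbered 1982 of the 20024 Liver nuclei, and 53467 nuclei were deposited as singlets in the whole series. Of the 2472 Liver nuclei annotated as endothelial, the remaining 490 lay in cluster 24 (269 nuclei) and cluster 26 (221 nuclei). Each of the 8 Liver samples, labelled L1 to L8, contributed between 146 and 441 members.

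The series profiled single nuclei of 8 male wild-type mice aged 10 to 12 weeks with free access to chow, and gave 3 sample types per mouse. Liver was a median lobe tied off and snap-frozen after the organ had been flushed with a buffer that binds calcium. Cell Suspension was the remainder of the same liver after collagenase perfusion, straining and low-speed spins that favour hepatocytes, and Primary Hepatocytes was that suspension after 24 hours on collagen. No group carried a transgene or a deletion, and the flush preceded all 3 sample types. The medium in which Primary Hepatocytes stood overnight held dexamethasone, a glucocorticoid, and insulin. The labels give the strain as C57BL6J and the study's methods as C57BL/6NTac. Nuclei carry little cytoplasmic RNA, so the levels below are nuclear levels, and the spins of the suspension set which endothelial cells could be sampled there. Nuclei of 4 hashtagged samples were mixed in each of 6 droplet pools, and 339 barcodes occurred in more than 1 pool, 22 of them among the members.

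Liver sinusoidal endothelial cells line the hepatic sinusoids. They lack a continuous basement membrane, carry open fenestrae, clear waste molecules from blood through scavenger receptors such as the stabilins, and send angiocrine signals (BMP and Wnt ligands, hepatocyte growth factor) to hepatocytes. GATA4 and MAF are transcription factors known for their part in this identity, whereas endothelium of larger vessels makes von Willebrand factor.

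The name given to the cluster was checked against 7 markers, Stab2, Ptprb, Adam23, Fbxl7, Sema6a, F8 and Plpp1. The median member held at least 1 UMI (a unique molecule counted once) of 7 of the 7 genes, and 96.5% of members held at least 4. After every nucleus was thinned to 1000 UMIs, which left 1834 members and dropped 148, 95.9% still held at least 4, against 30% of cluster 24 and 39.6% of cluster 26. Stab2 was detected in 92.8% of thinned members, between 90.2% and 95.9% by mouse, against 1.18% of thinned hepatocytes and 9.33% of thinned Kupffer cells, types that should lack it. Before thinning the shares were 96.2% of members and 6.35% of hepatocytes, at median depths of 3131 and 7696 UMIs per nucleus. These markers were among the genes on which the nuclei were clustered, so this and all comparisons of gene levels in cluster 3 with other Liver nuclei describe the cluster and carry no test.

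Upstream sequences are shown for Stab2, the leading marker, and for the 3 sinusoidal identity genes whose window held the letters described next. They were picked with the matches known, and the windows of Fcgr2b, Flt4 and Clec1b, which held none, are not printed. Windows of Fbxl7, Col13a1, Gm46565 and Esrrb, outside the sinusoidal identity list, held none either and are not printed. The printed sequences are RefSeq sequences of build GRCm38.p6 and cover 150 bases, from 250 to 101 bases before the start annotated there. That start can differ from the gene coordinates given below, and the windows of Fcgr2b and Flt4 lie inside those coordinates. Capitals mark the letters AGGAAG, or CTTCCT on the other strand, a core recognised by ETS family factors such as ERG and FLI1.
Stab2, chr10:87008043-87008192, minus strand: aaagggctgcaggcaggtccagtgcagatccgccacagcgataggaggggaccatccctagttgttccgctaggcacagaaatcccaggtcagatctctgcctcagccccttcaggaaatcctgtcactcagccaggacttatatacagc
Stab1, chr14:31168742-31168891, minus strand: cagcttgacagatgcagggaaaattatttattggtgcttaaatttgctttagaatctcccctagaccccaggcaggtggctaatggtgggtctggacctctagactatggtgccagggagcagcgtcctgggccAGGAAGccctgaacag
Clec4g, chr8:3720752-3720901, minus strand: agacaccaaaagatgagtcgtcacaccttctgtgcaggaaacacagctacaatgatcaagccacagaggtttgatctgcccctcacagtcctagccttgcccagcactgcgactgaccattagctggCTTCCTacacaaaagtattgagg
Mrc1, chr2:14229164-14229313, plus strand: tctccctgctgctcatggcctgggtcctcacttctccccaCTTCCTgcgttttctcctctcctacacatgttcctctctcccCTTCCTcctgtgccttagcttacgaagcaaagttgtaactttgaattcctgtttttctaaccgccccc

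Stab1 and Clec4g each held 1 match, Mrc1 held 2 and Stab2 held none. Windows were present for 7 of the 14 sinusoidal identity genes, and 3 of these 7 held the ETS letters, against 18.1% of 32851 windows of all genes. Of the 2 windows of cluster markers 0 held them, and of the 8 windows of genes of endothelium in general 3 did. The GATA letters AGATAA and the AP-1 letters TGANTCA, searched on both strands, were in none of the 7, against 6.54% and 4.0% of all windows. These are letter matches in short windows and do not show binding.

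Levels in Liver are given as CPM, UMIs of a gene over all UMIs of a type's nuclei summed per mouse and scaled to a common total, with no further scaling, and log2 differences are means over mice with 1 CPM added. CPM was not divided by gene length, so levels are set against each other within a gene only. Stab2 (chr10:86841198-87008025, GRCm38), a hyaluronan scavenger receptor, had a lowest, median and highest level of 3404, 4342 and 4648 CPM over the 8 mice. In endothelial nuclei outside cluster 3 it had 41.5, 85.3 and 107 CPM, in hepatocytes a mean of 9.12 CPM and in Kupffer cells 125 CPM. No mouse of the other types reached the level of any mouse of cluster 3, and the difference from the other endothelial nuclei was 5.79 ± 0.48 (SD, n = 8 mice) on the log2 scale. Adam23, a disintegrin family member without a known protease function (chr1:63445891-63596276), had 1281, 1446 and 2657 CPM in cluster 3 against 0, 56.8 and 167 CPM in the other endothelial nuclei. L2 and L3, at 2301 and 2657 CPM, stood above the remaining 6 mice, which lay between 1281 and 1710 CPM.

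Ptprb, the vascular endothelial phosphatase that acts on the receptor TIE2 (chr10:116275523-116389535), did not separate the endothelial clusters. It had 3996, 4446 and 5615 CPM in cluster 3 and 2928, 4224 and 6005 CPM in the other endothelial nuclei, with overlapping ranges and a log2 difference of 0.11 ± 0.34 (SD, n = 8). In cluster 24 it reached 5292 CPM on average and was higher than in cluster 3 in 7 of 7 mice by plain CPM (log2 difference -0.19), although the sign turned to 0.16 when TMM scaling was applied across the sums. It was at 36.7 CPM in Kupffer cells and 8.56 CPM in hepatocytes. F8, which encodes clotting factor VIII (chrX:75172715-75382615), had 1475, 2077 and 2474 CPM in cluster 3 and 945, 1088 and 1496 CPM in the other endothelial nuclei. The F8 ranges overlapped at their ends, and cluster 3 was higher within each of the 8 mice.

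Fbxl7, an F-box subunit of a ubiquitin ligase (chr15:26540459-26895580), had 2151, 2306 and 2598 CPM in cluster 3 and 937 ± 120 CPM in the other endothelial nuclei. Sema6a, a transmembrane semaphorin, had 1611, 1786 and 2111 CPM against 781 ± 144 CPM. Plpp1, a lipid phosphate phosphatase (chr13:112800792-112867894), had 1231, 1904 and 2304 CPM against 521 ± 198 CPM. The ranges of these 3 genes in cluster 3 lay entirely above those of the other endothelial nuclei. Sema6a and Fbxl7 were not confined to endothelium, with 1065 ± 133 and 577 ± 462 CPM in the nuclei annotated as biliary in cluster 28 (SD, n = 4 mice). Thus 3 of the 7 markers, Stab2, Adam23 and Plpp1, were at least 2-fold above the highest other Liver type, while Ptprb marked endothelium as a whole. The count was 6 of 7, all but Ptprb, with TMM scaling across the sums, and 4 of 7 with thinned nuclei, each against the type that was highest by plain CPM.

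**Figure D1:**
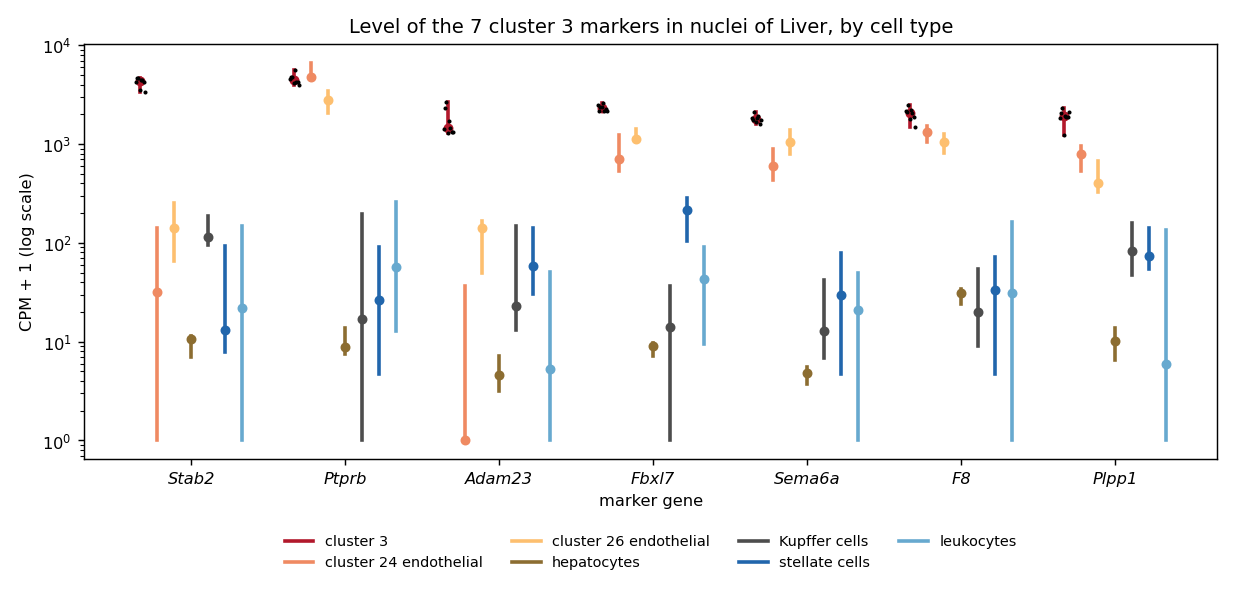
Level of the 7 marker genes in Liver by cell type, as CPM plus 1 on a log axis. Black dots are the 8 mice in cluster 3, coloured points are medians over mice and lines run from the lowest to the highest mouse. Nuclei annotated as biliary are not shown. Stab2 and Adam23 in cluster 3 lie above every other type in every mouse, whereas Ptprb in cluster 24 lies at or above cluster 3.

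Of 3798 genes of at least 50 CPM in cluster 3, 75 were at least 2-fold above every other Liver type and 4 at least 8-fold. The 10 highest ratios of summed levels over the highest other type were those of Stab2 (log2 ratio 4.82), Col13a1 (3.90), Adam23 (3.73), Gm46565 (3.50), Dnase1l3 (2.86), Esrrb (2.77), Ppfia2 (2.76), Bmp2 (2.72), Fcgr2b (2.70) and Flt4 (2.64). Col13a1, a transmembrane collagen (chr10:61838236-61979108), had 202, 302 and 385 CPM in cluster 3 and at most 48.5 CPM in the other endothelial nuclei of any mouse. Gm46565, a long intergenic non-coding RNA (chr16:30913331-30935629), had 249, 355 and 427 CPM in cluster 3 and at most 83.7 CPM in the other endothelial nuclei. For both genes each mouse of cluster 3 stood above each mouse of the other endothelial nuclei.

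Dnase1l3, a secreted nuclease that digests DNA in chromatin and in vesicles (chr14:7964533-7994573), had 699, 920 and 1194 CPM, against 10.4, 68.5 and 206 CPM in the other endothelial nuclei. The nuclear receptor gene Esrrb had 54.3 to 87.2 CPM against 0 to 10.4 CPM, and Ppfia2, a liprin that scaffolds membrane proteins, 297 to 481 CPM against 20.9 to 83.1 CPM. Fcgr2b, an inhibitory Fc receptor that clears immune complexes (chr1:170958617-170976547), had 402 to 567 CPM against 31.7 to 103 CPM. Flt4, the receptor VEGFR3 (chr11:49609263-49652739), had 444 to 687 CPM against 0 to 109 CPM. None of these 4 genes overlapped between cluster 3 and the other endothelial nuclei. Low levels in the comparison nuclei rest on few UMIs per mouse, and such log2 differences spread widely (SD 2.13 for Flt4).

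Of 14 sinusoidal identity genes, all 14 were higher in cluster 3 than in the other endothelial nuclei, 11 of them at least 2-fold, with a median log2 difference of 2.96. Within mice 13 of the 14 had a positive mean difference from the Liver type that was highest otherwise, Gata4 by only 0.02 over cluster 24 (higher in 3 of 7 mice). Mrc1, the mannose receptor that takes up glycoproteins and collagen fragments, had 1201, 1534 and 1864 CPM in cluster 3 and 105, 183 and 330 CPM in the other endothelial nuclei. Kupffer cells had 1152 CPM of Mrc1, so this gene was shared with resident macrophages. Stab1, the second stabilin, had 467 ± 69.9 CPM in cluster 3 against 274 ± 140 CPM in the other endothelial nuclei. The C-type lectin Clec4g had 160 ± 56.4 against 28.9 ± 18.5 CPM and the hyaluronan receptor Lyve1 98.6 ± 41.8 against 12 ± 16 CPM. The exception was Clec1b, a lectin-like receptor, with 130 ± 28.7 CPM in cluster 3 and 212 CPM in Kupffer cells. Maf had 837, 1009 and 1328 CPM against 176, 255 and 353 CPM, whereas Gata4 differed little, at 807 ± 111 CPM against 654 ± 122 CPM and at 838 CPM in cluster 24. Markers of other cell types were also mostly higher in cluster 3 than in the other endothelial nuclei. They were 8 of 8 hepatocyte, 6 of 6 Kupffer, 5 of 7 stellate, 5 of 7 leukocyte, 5 of 6 biliary and 4 of 5 mesothelial markers. Median log2 differences of these lists ran from 0.19 to 1.16. A count of genes above the other endothelial nuclei, here and below, thus does not by itself set a list apart.

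The 18 genes expressed by endothelium in general were split, with 9 of 18 above the other endothelial nuclei, 3 of them at least 2-fold, and a median log2 difference of 0.03. Kdr, the receptor VEGFR2, had 626, 874 and 1063 CPM in cluster 3 against 107, 215 and 344 CPM in the other endothelial nuclei. Ets1, an ETS factor, had 1034 ± 98.7 against 269 ± 54.6 CPM. Pecam1, an adhesion molecule at cell contacts, went the other way in 7 of 8 mice, with 430 ± 36.8 CPM in cluster 3 and 728 ± 227 CPM outside it. Tek, the receptor TIE2, had 730 ± 92.7 against 961 ± 218 CPM and Erg 600 ± 55.3 against 703 ± 298 CPM, both with overlapping ranges. The endothelial receptor Flt1 was also similar, at 709 ± 57.1 and 791 ± 85.9 CPM.

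Of 18 transcription factor genes, 11 were above the other endothelial nuclei and 6 at least 2-fold, with none 2-fold lower. Meis2, a homeobox gene of the TALE class, had 2662 ± 224 CPM in cluster 3 and 2471 ± 168 CPM outside it, a log2 difference of 0.11 ± 0.15 (SD, n = 8). Among 8 VEGF and angiopoietin receptors and coreceptors, 3 were at least 2-fold higher and none 2-fold lower. Nrp1 and Nrp2, coreceptors of VEGF and semaphorins, had 1913 ± 202 against 978 ± 130 CPM and 725 ± 83.9 against 334 ± 38.3 CPM, without overlap between the 8 mice of each class.

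Of 16 angiocrine ligands, 6 were at least 2-fold higher in cluster 3 than in the other endothelial nuclei and 5 at least 2-fold lower. Bmp2 (chr2:133552159-133562885) had 193, 237 and 433 CPM against 0, 22.0 and 57.1 CPM, and Bmp6 had 677, 996 and 1329 CPM against 248, 394 and 737 CPM. Both proteins act on hepatocytes to raise hepcidin, the iron hormone. Hgf, the hepatocyte growth factor, had 237 ± 112 CPM in cluster 3 and 27.0 ± 25.7 CPM in the other endothelial nuclei, but stellate cells had 1573 CPM. On the opposite side stood Rspo3, which amplifies Wnt signals, at 35.0, 115 and 165 CPM in cluster 3 and 1271, 2545 and 3274 CPM in the other endothelial nuclei. Its level was 4280 CPM in cluster 24 and 4.33 CPM in cluster 26. Wnt9b, a Wnt ligand of the central vein region, followed the same order with 12.3 ± 7.78 CPM in cluster 3, 461 CPM in cluster 24 and 0 CPM in cluster 26. For Wnt2 cluster 3 lay nearer to cluster 24, with 131 ± 47.0 CPM in cluster 3, 169 CPM in cluster 24 and 6.61 CPM in cluster 26. The vasoconstrictor gene Edn1 (0.750 against 98.1 CPM) and the Notch ligand gene Jag1 (22.6 against 229 CPM) were lower in cluster 3 in each of the 8 mice.

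The sinusoid runs from a portal to a central end, and 8 genes known from each side were examined. Of the central genes 6 of 8 were at least 2-fold lower in cluster 3 than in the other endothelial nuclei, among them Cdh13 at 952 ± 176 against 4143 ± 918 CPM, while Kit, the stem cell factor receptor, was higher at 399 ± 82.0 against 108 ± 53.0 CPM. Of the portal genes 5 of 8 were higher, 2 of them at least 2-fold, and none was 2-fold lower. The scavenger receptor gene Msr1 had 471 ± 127 CPM in cluster 3, 29.9 CPM in cluster 24 and 727 CPM in cluster 26.

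Of 12 genes of large vessel endothelium, 9 were at least 2-fold lower in cluster 3. Vwf, von Willebrand factor, had 1.60, 5.96 and 13.8 CPM against 504, 1082 and 1360 CPM in the other endothelial nuclei, a log2 difference of -7.24 ± 1.14 (SD, n = 8). The kinase gene Bmx had 1.19 ± 1.52 against 261 ± 84.9 CPM and Selp, P-selectin, 3.85 ± 3.04 against 158 ± 60.6 CPM. In these 3 genes the ranges of the classes were far apart. Plvap, which forms the diaphragms of fenestrae and caveolae, had 18.0 ± 6.42 CPM in cluster 3 and 117 ± 61.1 CPM outside it, and the junction gene Jam2 had 212 ± 106 against 1165 ± 302 CPM. These were the 2 of 12 junction and caveola genes that were at least 2-fold lower.

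Scavenging and endocytosis genes were mostly on the high side, with 12 of 14 above the other endothelial nuclei and 5 at least 2-fold. Dab2, a clathrin adaptor, had 993 ± 137 against 416 ± 128 CPM and Ehd3, a membrane trafficking ATPase, 683 ± 77.4 against 262 ± 69.5 CPM. Among 9 basement membrane genes 8 were higher and 5 at least 2-fold, including Hspg2 (perlecan) at 299 ± 60.4 against 145 ± 53.1 CPM and Col4a1 at 212 ± 46.0 against 100 ± 53.8 CPM. The median log2 differences of the scavenging and basement membrane lists were 0.72 and 1.12. Both lay within the range of the marker lists of other cell types (0.19 to 1.16). Among 10 coagulation genes 4 were at least 2-fold lower and Tfpi, an inhibitor of the tissue factor pathway, was higher at 238 ± 47.5 against 93.5 ± 26.5 CPM. Of 17 guidance genes 4 were at least 2-fold higher, among them Plxnc1 (636, 942 and 1742 CPM against 62.3, 180 and 219 CPM), and 2 at least 2-fold lower, among them the plexin gene Plxna4 (487, 550 and 714 CPM against 708, 1306 and 1590 CPM).

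**Figure D2:**
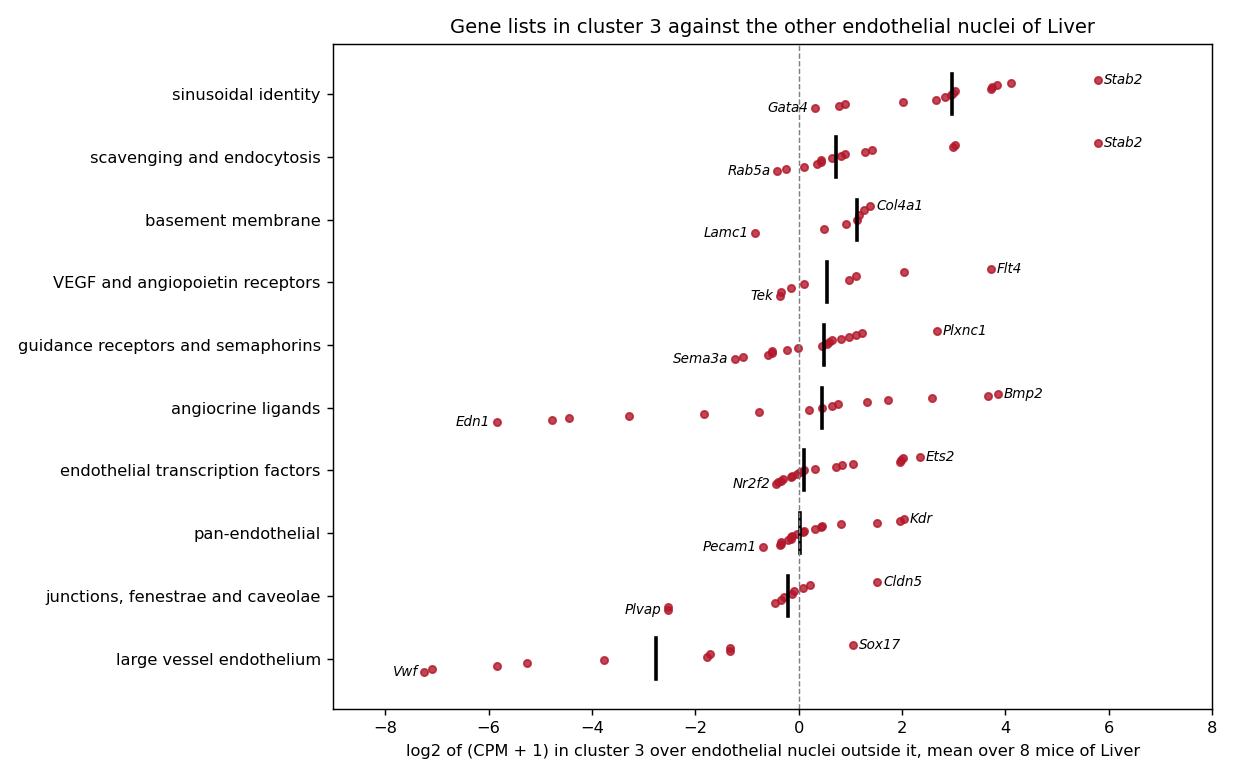
Log2 difference of cluster 3 from the endothelial nuclei outside it, mean over the 8 mice, for each gene list. Each point is a gene of at least 10 CPM in either class, the black bar is the median of the points, and the lowest and highest gene of each list are named. Sinusoidal identity genes lie to the right of 0 and large vessel genes mostly to the left, with Vwf at -7.24.

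RNA of other cell types was present in the members. The 8 hepatocyte markers summed to 1974 to 4627 CPM in cluster 3 by mouse, against 11571 to 17208 CPM in hepatocytes themselves, and none of the 8 was at 0. Summed markers of Kupffer cells lay at 4.10 to 60.7 CPM against 3691 to 6260 CPM in their own type, of stellate cells at 35.8 to 96.2 CPM against 8938 to 14158 CPM, and of leukocytes at 27.5 to 109 CPM against 5539 to 11145 CPM. Hepatocyte markers thus summed to more than those of the other types, and hepatocyte genes in these nuclei are not read as endothelial expression.

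Properties that did not serve as named markers were compared between types within each mouse by an exact two-sided sign-flip permutation test, whose smallest p with 8 mice is 0.0078125, with Benjamini-Hochberg adjustment over 5 comparisons per property. The unspliced share of UMIs, a mark of unprocessed nuclear transcripts, had a median of 75.1% ± 2.11 (SD, n = 8) in cluster 3. It was higher than in Kupffer cells by 4.26 percentage points and than in leukocytes by 4.51 points, each in 8 of 8 mice (exact permutation test, adjusted p = 0.0130). It was lower than in stellate cells in 8 of 8 mice (-1.32 points, exact permutation test, adjusted p = 0.0130). Against hepatocytes the difference of 2.60 points passed with the 8 mice (higher in 7 of 8, exact permutation test, adjusted p = 0.0488) but passed without a mouse only when mouse 5 was the one left out. Against the other endothelial nuclei it was -0.701 points (higher in 2 of 8, exact permutation test, adjusted p = 0.234).

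The median member of a mouse held 2869 ± 709 UMIs, a difference of -5437 from hepatocytes, of -446 from stellate cells and of 920.5 from leukocytes, each with 1 sign in 8 of 8 mice (exact permutation test, adjusted p = 0.0130). The difference of 398 from Kupffer cells (higher in 7 of 8, exact permutation test, adjusted p = 0.0391) passed without a mouse only when mouse 5 was the one left out. The difference from the other endothelial nuclei was -282.5 UMIs (exact permutation test, adjusted p = 0.25). Mitochondrial transcripts, which do not belong to nuclei, made up 0.373% ± 0.0693 of UMIs, above hepatocytes by 0.219 points in 8 of 8 mice (exact permutation test, adjusted p = 0.0195) and above stellate cells by 0.134 points in 8 of 8 mice (exact permutation test, adjusted p = 0.0195). The difference was -0.0362 points from Kupffer cells (higher in 2 of 8, exact permutation test, adjusted p = 0.0391) and -0.135 points from leukocytes (higher in 1 of 8, exact permutation test, adjusted p = 0.0260). Leaving out 1 mouse ended the Kupffer call in 6 of 8 cases and the leukocyte call in 5 of 8. From the other endothelial nuclei it was 0.0421 points (exact permutation test, adjusted p = 0.375). The nuclei outside cluster 3 therefore gave no call in any of the 3 properties.

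**Figure D3:**
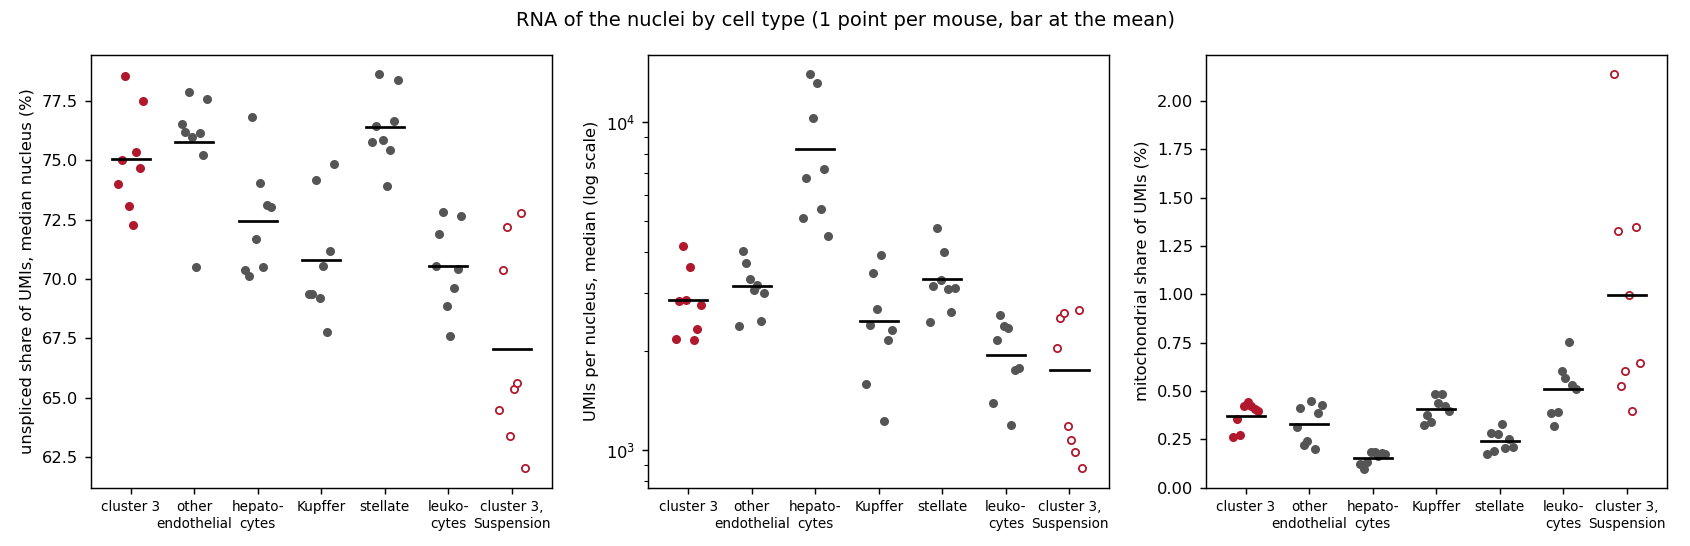
Median unspliced share in percent, median UMIs per nucleus and mitochondrial share in percent by cell type, 1 point per mouse and a bar for the mean. Filled points are Liver, and open points are cluster 3 of Cell Suspension. Liver members lie between 72.3% and 78.6% unspliced and suspension nuclei of the same cluster between 62.0% and 72.8%.

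The question of what the isolation does to these cells was addressed by comparing cluster 3 nuclei of Liver with the 1068 nuclei of cluster 3 in Cell Suspension, 38 to 234 per sample, from the same mice. The cluster assignment was made on all nuclei together, so endothelial nuclei that changed enough to leave the cluster are not in this comparison. The unspliced share fell from 75.1% to 67% (lower in 8 of 8 mice, exact permutation test, adjusted p = 0.0234), and the median UMIs per nucleus fell from 2869 to 1745 (lower in 7 of 8, exact permutation test, adjusted p = 0.0313). The mitochondrial share rose from 0.373% to 0.998% (higher in 7 of 8, exact permutation test, adjusted p = 0.0234), with suspension samples between 0.398% and 2.14%. These paired tests had no term for the droplet pool, and only mice 6 and 7 had both samples in the same pool. In mouse 6 the unspliced share went from 75.3% to 65.6%, the median UMIs from 2167.5 to 982 and the mitochondrial share from 0.422% to 0.398%. In mouse 7 the 3 properties went from 74.7% to 72.8%, from 2333 to 2661 and from 0.408% to 1.35%. The part of the pool in these shifts was not tested. The share of UMIs from 603 hepatocyte-restricted genes was 4.75% ± 0.963 in Liver and 5.41% ± 2.38 in Cell Suspension (higher in 5 of 8, exact permutation test, p = 0.430). The part of splicing state, depth and mitochondrial RNA in the gene differences that follow was not tested as a cause.

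Counts were summed per sample and tested with edgeR's quasi-likelihood test and Benjamini-Hochberg adjustment at 0.05, and levels from here on are CPM after TMM scaling. Of 15995 genes tested, 447 (2.79%) were called, 298 (1.86%) higher and 149 (0.932%) lower in Cell Suspension. The median log2 change of all genes was -0.09. With DESeq2 that median was 0.02, and the split was 379 higher and 116 lower, while RLE scaling gave 349 and 91. Mice and pools weighed on the count, which was 255 without mouse 1, 281 without mouse 3, 213 with the droplet pool as a covariate and 202 with that covariate in the 4 pools that held both sample types alone.

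Few sinusoidal genes were called, as was the case for all genes tested (2.79%, and 6.59% of those of at least 50 CPM), so the low counts are not particular to these lists. Of the 7 cluster markers 0 were called in either direction by edgeR or DESeq2, 1 had an unadjusted p under 0.05, and the median log2 change was -0.13. In the nuclei above their sample's median for the margin of the hashtag call the medians turned positive, to 0.64 for these markers, from -0.17 to 0.50 for the sinusoidal identity genes and from -0.16 to 0.52 for the genes of endothelium in general, with no call in the 3 lists. The margin's median was taken over all nuclei of a sample, not over cluster 3 alone. This setting left 8897 genes to test, against 10708 in sums thinned to the smallest total, so it held few counts. Stab2 had 3373, 4305 and 4770 CPM in Liver and 2506, 4071 and 5017 CPM in Cell Suspension, an overlapping range with a log2 change of -0.11 (SE 0.15, edgeR adjusted p = 0.791). Ptprb had 4529 ± 539 and 3583 ± 819 CPM, lower in 7 of 8 mice (log2 change -0.34, SE 0.15, edgeR adjusted p = 0.257). Of the 14 sinusoidal identity genes 1 was called, Il1a, an alarmin cytokine, with 28.7, 45.3 and 63.4 CPM in Liver and 31.3, 132 and 243 CPM in Cell Suspension (log2 change 1.61, SE 0.23, edgeR adjusted p = 1.58e-05). The Il1a call was lost in the spliced counts (0.65, edgeR adjusted p = 0.192) and above that margin (1.96, edgeR adjusted p = 0.0743). No gene was called by edgeR among 14 scavenging, 8 VEGF and angiopoietin receptor, 12 junction, 17 guidance or 9 basement membrane genes, where 1, 2, 0, 4 and 1 had an unadjusted p under 0.05 and DESeq2 called 1 guidance gene. With the mouse as a block 1 sinusoidal identity, 1 scavenging and 1 basement membrane gene were called lower. Mrc1 gave 1520 ± 246 and 1380 ± 434 CPM, and Kdr 878 ± 155 and 739 ± 264 CPM.

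Immediate early genes, which code for transcription factors and regulators made within minutes of a stimulus, rose in 15 of 18 cases, with a median log2 change of 2.89 and 12 genes without overlap between the sample types. Across all tested genes 1.86% were called higher and 0.606% did not overlap, and among the 4022 of at least 50 CPM in 1 sample type 6.59% were called and 1.34% did not overlap. Fosb had 0, 3.78 and 6.87 CPM in Liver and 141, 365 and 817 CPM in Cell Suspension (log2 change 6.34, SE 0.36, edgeR adjusted p = 3.31e-15). Fos had 3.22, 9.97 and 14.4 CPM and 141, 262 and 634 CPM (log2 change 5.07, SE 0.29). Every suspension sample of both FOS family genes stood above every Liver sample. Jun rose from 20.9, 31.8 and 39.6 CPM to 382, 615 and 1384 CPM (log2 change 4.59, SE 0.24, edgeR adjusted p = 4.07e-16), Junb by 3.67 and Jund by 4.31, so the JUN partners of AP-1 moved with FOS. Atf3, an ATF family factor, rose by 3.69 and Egr1, a zinc finger factor, by 3.64, the latter from 20.1, 33.0 and 61.4 CPM to 197, 431 and 666 CPM. Hepatocytes of the same suspensions had 1169 ± 563 CPM of Atf3 (scaled across both types). The part of hepatocyte RNA in the rises of immediate early genes was not tested. Ier2 rose by 3.51, and Zfp36, whose protein speeds decay of cytokine transcripts, by 3.21. The 3 members not called were Fosl2, Egr2 and Myc, of which Myc had 2.92 ± 3.91 and 13 ± 10.3 CPM (edgeR adjusted p = 0.0680). With the droplet pool as a covariate 12 of the 18 were called, and in the unspliced counts 8 of 12 tested. With the mouse as a block 16 of the 18 were called, as by DESeq2.

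**Figure D4:**
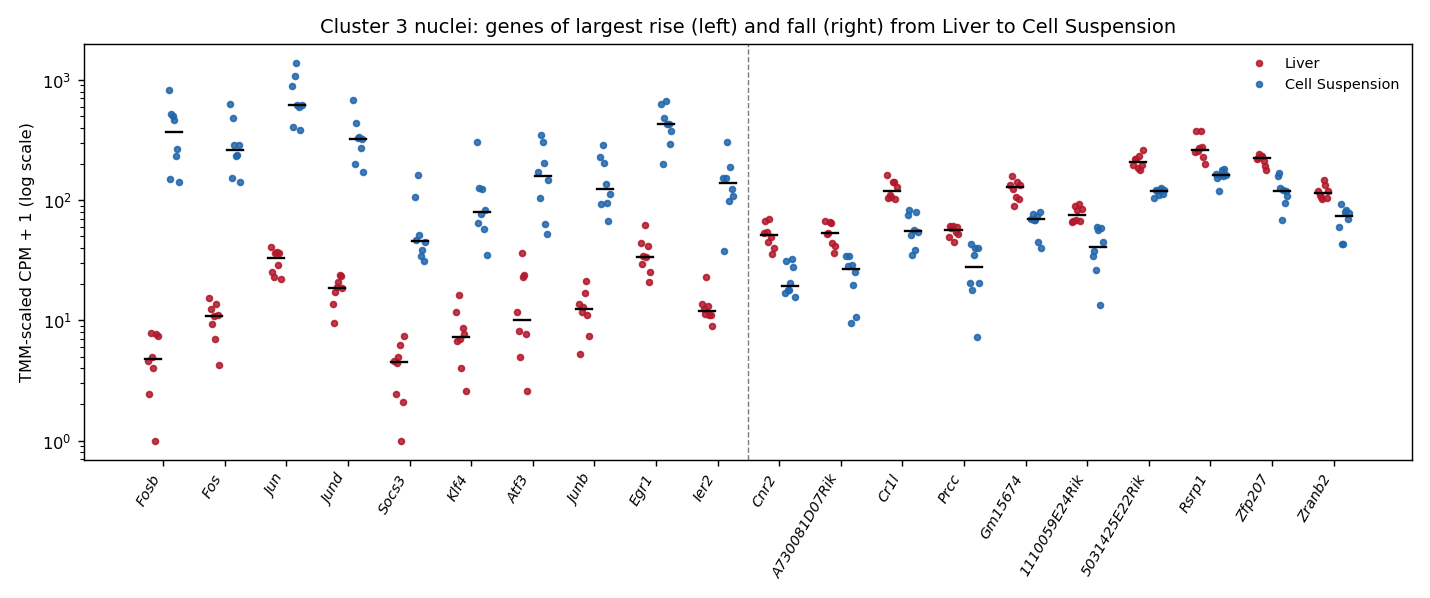
Level of the genes of largest rise and fall in cluster 3 of each Liver and Cell Suspension sample, as CPM after TMM scaling plus 1 on a log axis, with bars at the medians. The genes were chosen as called and without overlap between the sample types, so their separation follows from the choice. Fosb has at most 6.87 CPM in Liver and at least 141 CPM in Cell Suspension, and the falling genes differ by smaller steps than the rising ones.

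Genes known to answer to blood flow were called higher in 5 of 9 tested, beside 1.86% of all genes tested. Klf4, a zinc finger factor of quiescent endothelium, rose from 1.61, 6.32 and 15.2 CPM to 34.0, 78.6 and 302 CPM (log2 change 3.88, SE 0.36, edgeR adjusted p = 1.66e-09). Klf2, its relative induced by shear stress, rose from 8.61, 22.7 and 31.9 CPM to 77.7, 115 and 335 CPM (log2 change 2.65, edgeR adjusted p = 4.62e-09). Neither gene overlapped between Liver and Cell Suspension. Klf6 rose by 2.66, S1pr1, a sphingosine-1-phosphate receptor gene, by 1.26 and Thbd, thrombomodulin, by 1.79. The S1pr1 result changed in 5 of the alternative settings and the Thbd result in 6. The Thbd call was lost without mouse 1 and with the pool as a covariate, among others. Nos3, the endothelial nitric oxide synthase, had 18.9 ± 3.80 and 19.7 ± 6.25 CPM (edgeR adjusted p = 0.983). With the pool as a covariate 3 of the 9 were called and the list's median fell from 1.26 to 0.60.

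Of 8 glucocorticoid-responsive genes 4 rose, Dusp1, Sgk1, Nfkbia and Cdkn1a, beside 1.86% of all genes tested. Sgk1, a serum- and glucocorticoid-regulated kinase, went from 81.8, 95.2 and 117 CPM to 143, 306 and 493 CPM (log2 change 1.73, SE 0.17, edgeR adjusted p = 5.30e-09), and the sample types did not overlap. The classical glucocorticoid targets Tsc22d3 and Fkbp5 were not called. With the pool as a covariate 2 of the 8 were called and the list's median fell from 1.45 to 0.79, above the median hashtag margin 2 of 7 were called, and with the mouse as a block 6 of 8. Of 11 heat shock chaperones 6 rose, with Hspa8, the constitutive HSP70, at 42.0 ± 9.45 and 134 ± 37.9 CPM (log2 change 1.64, edgeR adjusted p = 2.19e-07). That count was 1 of 11 with the pool as a covariate, 2 of 10 in the unspliced counts and 0 of 9 in the nuclei above the median hashtag margin.

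Of 13 endothelial activation genes 3 rose, beside 1.86% of all genes tested. Cxcl10, an interferon-induced chemokine, had 1.98, 6.63 and 12.9 CPM and then 9.71, 38.1 and 182 CPM (log2 change 3.10, SE 0.42, edgeR adjusted p = 5.54e-06), and Irf1, an interferon regulatory factor, had 44.4 ± 10.1 and 146 ± 98.1 CPM. Icam1, an adhesion molecule of inflamed endothelium, had 23.1 ± 6.97 and 24.6 ± 6.08 CPM (edgeR adjusted p = 0.904). Socs3, a suppressor of cytokine signalling, belonged to no list and rose from 0, 3.52 and 6.44 CPM to 30.1, 44.6 and 159 CPM (log2 change 4.09, SE 0.38, edgeR adjusted p = 1.66e-09). Among 15 angiocrine ligands 1 was called, Bmp2, which rose from 186, 238 and 430 CPM to 269, 493 and 752 CPM in 8 of 8 mice (log2 change 0.91, SE 0.18, edgeR adjusted p = 0.00169). Rspo3 had 99.8 ± 54.4 and 46.4 ± 35.4 CPM (edgeR adjusted p = 0.153).

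Falls were smaller. Of 18 transcription factor genes 2 fell, Erg from 596 ± 55.9 to 423 ± 81.1 CPM (log2 change -0.48, SE 0.13, edgeR adjusted p = 0.0344) and Tal1 from 65.9 ± 11.8 to 38.2 ± 9.68 CPM (log2 change -0.74, SE 0.20, edgeR adjusted p = 0.0302), each in 8 of 8 mice. Both calls were lost under RLE scaling, with the pool as a covariate, in nuclei of at least 1000 UMIs and on leaving out mouse 3, 4 or 6 alone, and Erg changed sign in the spliced counts (0.47) and in the nuclei above the median hashtag margin (0.31). The list had 3 genes called lower with the mouse as a block and 1 by DESeq2. Among genes without overlap and of at least 50 CPM, the largest falls were those of Cnr2, the cannabinoid receptor CB2, from 34.5, 50.3 and 69.0 CPM to 14.6, 18.2 and 31.3 CPM (log2 change -1.24, SE 0.24, edgeR adjusted p = 0.00117), and of A730081D07Rik (-1.07). Cr1l, a complement regulator, fell from 100, 119 and 160 CPM to 33.7, 54.7 and 81.9 CPM (log2 change -0.98, SE 0.17). The others of the 10 were Prcc (-0.92), Gm15674 (-0.89), 1110059E24Rik (-0.88), 5031425E22Rik (-0.87), Rsrp1 (-0.80), Zfp207 (-0.79) and Zranb2 (-0.74), the last of which codes for a splicing regulator. None of these 10 falls was called above the median hashtag margin (8897 genes tested there, against 15995). In thinned sums 7 of the 10 calls were lost. With the pool as a covariate 4 were lost (Cnr2, Prcc, 1110059E24Rik and Zranb2), and that of Prcc also without mouse 1 or mouse 3. Rsrp1 had the opposite sign in the unspliced counts (0.93), and 1110059E24Rik in the spliced counts (0.0696). Above the median hashtag margin Cr1l (0.64) and Gm15674 (0.28) had the opposite sign.

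Lists without a call by edgeR or DESeq2 were the 16 circadian clock genes, 7 Notch genes and 12 BMP and TGF-beta genes, as well as the tested Kupffer (5), leukocyte (7), biliary (4) and mesothelial (3) markers and the large vessel (9) and lymphatic (5) genes, with at most 2 members of a list at an unadjusted p under 0.05. Only 2.79% of all genes tested were called by edgeR, so the lack of a call is not particular to lists of this size. With the mouse as a block 1 circadian gene was called higher. The cell cycle list of 10 had 1 call (Cdkn1a), which became 2 by DESeq2, 0 with the pool as a covariate and 5 of 6 tested above the median hashtag margin (median log2 change 3.01). The 7 stellate markers had 1 call (Lrat, lost without mouse 1, 2 or 3 and with the pool as a covariate) and the 8 hepatocyte markers 1, Pck1 (201 ± 102 and 502 ± 260 CPM). For the hepatocyte markers this became 0 higher and 2 lower above the median hashtag margin (median log2 change -0.76 in place of 0.11), 3 higher with the pool as a covariate and 0 without the nuclei richest in hepatocyte RNA. Thbd was the only call among 8 central genes, and Il1a and Clu were the 2 among 8 portal genes. With the mouse as a block 1 gene more was called in each of the central, portal and angiocrine lists, each time lower in Cell Suspension. Summed hepatocyte markers in suspension nuclei ranged from 1845 to 6197 CPM, beside 1974 to 4627 CPM in Liver.

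**Figure D5:**
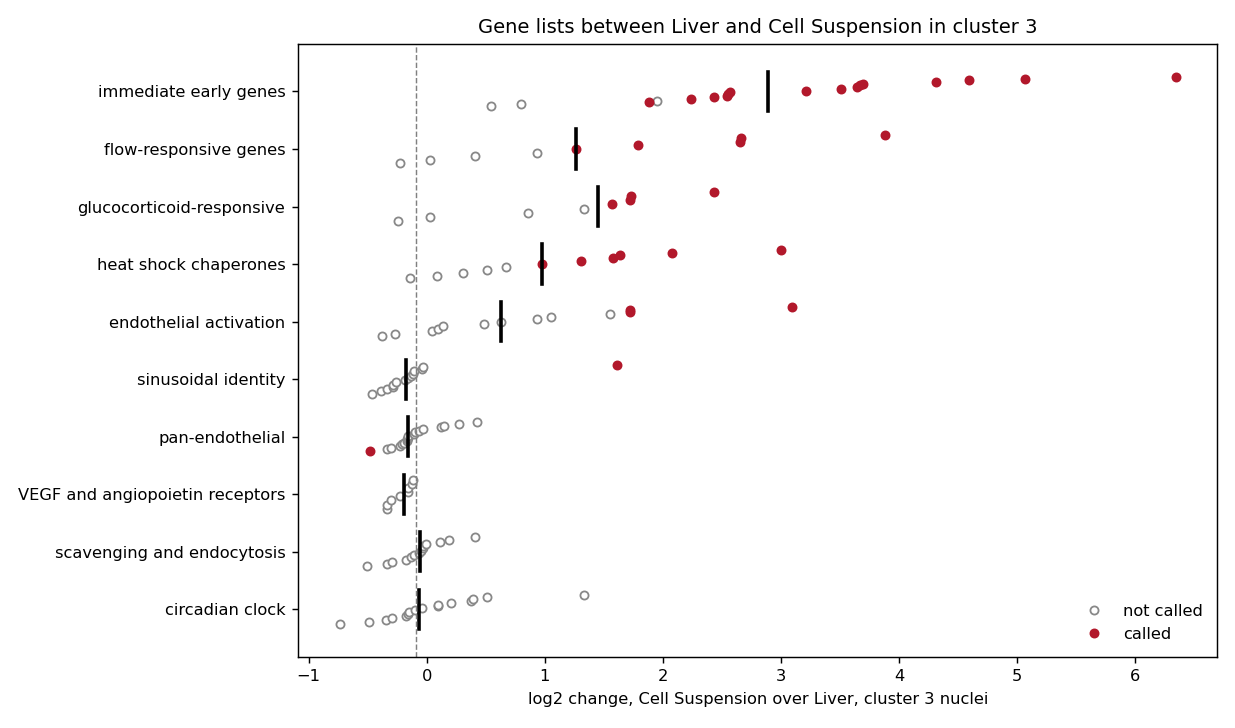
Log2 change from Liver to Cell Suspension in cluster 3 by gene list, 1 point per tested gene, filled where called by edgeR. Bars are list medians and the dashed line is the median of all genes, -0.09. Immediate early genes lie to the right with a median of 2.89, and the sinusoidal identity list has its median at -0.17 with Il1a as the called member.

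Whether cluster 3 changed differently from hepatocytes of the same samples was tested as an interaction over 32 sums, with each sample's pair of sums as a block (edgeR quasi-likelihood test, CPM scaled by TMM across both types). Of 25004 genes, 502 (2.01%) were called, 152 (0.608%) more positive and 350 (1.40%) more negative in cluster 3, a split of 162 and 226 under RLE scaling. Without the block the count was 199. Among 18 immediate early genes 7 were more negative in cluster 3 (Fos, Fosb, Atf3, Egr1, Ier2, Btg2 and Nr4a1) and 2 more positive (Jund and Dusp1). Atf3 went from 11.6 ± 9.87 to 141 ± 89.2 CPM in cluster 3 and from 7.86 ± 3.31 to 1169 ± 563 CPM in hepatocytes, a difference of -3.55 (SE 0.30, edgeR adjusted p = 1.06e-15). Actg1, gamma actin, went from 21.1 ± 13.1 to 87.3 ± 44.8 CPM in cluster 3 and from 16.6 ± 4.25 to 590 ± 137 CPM in hepatocytes (difference -3.15, edgeR adjusted p = 4.80e-17). Counts of these genes rose in the nuclei of both types and less so in cluster 3. Summed hepatocyte markers had medians of 3127 CPM in suspension cluster 3 nuclei and 17962 CPM in suspension hepatocytes (plain CPM). The part of hepatocyte RNA in these cluster 3 rises was not tested, so they are not read as an endothelial response. The other largest negative differences were those of Btg2 (-2.75), Dstn (-2.30) and Txnip (-2.17).

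Among all genes of this test 0.608% were called more positive and 1.40% more negative in cluster 3. Of 11 flow-responsive genes 3 had called positive differences, Klf2, Klf4 and S1pr1. In hepatocytes Klf4 had 0.233 ± 0.0915 and 0.459 ± 0.316 CPM and Klf2 0.395 and 0.947 CPM, levels near background, so their differences are not read as a stronger response of endothelium than of hepatocytes. Klf10 and Hes1 of the same list had called negative differences (-1.11 and -1.21). Among 14 sinusoidal identity genes 7 were called more negative, and among 18 genes of endothelium in general 8. Their hepatocyte levels were low, from 0.584 CPM of Lyve1 in Liver to 14.4 CPM of Stab2 in Cell Suspension, so these calls are not read either, and the part of endothelial RNA in hepatocyte nuclei was not tested. The largest positive differences among genes of at least 50 CPM were those of Gm14023 (2.27), Adamts1 (2.13), Il1a (2.01), Nfkbiz (1.65) and Gm12840 (1.49). The first 3 entered through cluster 3 and had low hepatocyte levels, of at most 5.81 CPM on average and for Il1a of 0.605 and 0.532 CPM, so their differences are not read either. Nfkbiz, which codes for a nuclear regulator of NF-kappa-B, went from 20.9 ± 5.83 to 214 ± 117 CPM in cluster 3 and from 29.3 ± 7.18 to 97.3 ± 47.4 CPM in hepatocytes. Above the median hashtag margin the calls of Atf3, Actg1, Btg2, Txnip, Nfkbiz and Gm12840 were lost, and in the spliced counts that of Dstn. The Gm12840 difference turned to -0.44 in the unspliced counts.

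Against Kupffer cells the same interaction called 14 of 17838 genes (0.0785%), 10 (0.0561%) more positive and 4 (0.0224%) more negative in cluster 3. The count was 1 without the block and 0 in the spliced counts, so it depended on the model. Celf2, an RNA-binding splicing regulator, went from 330 ± 150 to 1170 ± 680 CPM in cluster 3 and from 1114 ± 169 to 1288 ± 453 CPM in Kupffer cells (difference 1.58, SE 0.19, edgeR adjusted p = 6.59e-13), with a difference near 0 in the spliced counts. Srgn, the proteoglycan serglycin, went the other way, from 64.9 ± 16.4 to 89.5 ± 39.9 CPM in cluster 3 and from 23.4 ± 7.35 to 162 ± 110 CPM in Kupffer cells (difference -2.50, SE 0.31, edgeR adjusted p = 5.50e-12). Jund (1.42), Irf1 (1.52) and Sgk1 (1.26) were list members with a more positive change in cluster 3, and no sinusoidal identity gene was called.

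The members also varied among the 8 Liver mice. Of 118 list genes of at least 50 CPM (TMM scaled), the median coefficient of variation was 17.8%, and 7 exceeded 50%. The 7 include Hal and Pck1, hepatocyte genes that are not read as endothelial expression, and Tsc22d3. Zbtb16, a glucocorticoid target, ranged from 41.4 CPM in L1 to 301 CPM in L8 (86.0%), and Arntl, a core clock factor, from 5.09 CPM in L6 to 179 CPM in L3 (76.3%), where counting alone would give 12% and 13.4%. Rspo3 ranged from 34.4 CPM in L2 to 170 CPM in L3 (54.6%), Jam2 from 122 CPM in L1 to 468 CPM in L3 (52.5%), and Hgf from 135 CPM in L6 to 504 CPM in L3 (49.5%). L3 was thus the highest mouse for each of Arntl, Rspo3, Jam2 and Hgf, and also for Wnt2, Plxnc1 and Adam23. Other mice were highest for other genes, such as L5 for Bmp2 and L8 for Pck1, so L3 is not singled out among the mice. For Tef, another clock gene, L3 was the lowest mouse at 31.9 CPM and L6 the highest at 117 CPM. L3 had the most members (441) and the deepest nuclei (median 4176 UMIs), and the part of depth in these values was not tested. The marker Fbxl7 in contrast stayed between 2116 and 2579 CPM (TMM scaled).

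In Primary Hepatocytes only 75 nuclei belonged to cluster 3, 0 to 20 per sample, and they were pooled without an error. Their assigned hashtag held 36.7% of their hashtag UMIs, beside 34.3% in cluster 12 of Primary Hepatocytes. The means in cluster 3 of Liver and Cell Suspension were 36.6% and 37.5%, so this share does not set the 75 nuclei apart. The paper proposes that culture clusters resembling uncultured endothelium were either incompletely changed cells or cells wrongly assigned from the other sample types. The summed Stab2 level of the 75 nuclei was 2158 CPM, beside 4193 CPM in Liver and 3773 CPM in Cell Suspension (plain CPM). The 1733 nuclei of cluster 12, annotated by the authors as cultured endothelial cells, had 1059 ± 141 CPM of Stab2 (SD, n = 8). For Kdr the 4 values were 883, 717, 462 and 38.0 CPM, and for Mrc1 1529, 1349, 890 and 66.9 CPM. F8 stood at 2026, 1648, 1099 and 55.0 CPM. Pecam1 had a different order, with 430, 360, 233 and 710 CPM, as had Plpp1 with 1904, 1678, 916 and 980 CPM. Culture time, cluster, sample assignment and depth (median 5110 UMIs in the 75 nuclei and 1351 in cluster 12) cannot be told apart in these values, which carry no test.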

How the data were processed

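Single nuclei of 24 hashtagged samples (8 mice, 3 sample types) were sequenced in 6 droplet pools. The authors mapped reads to spliced and unspliced GRCm38 transcripts (Salmon Alevin, then Alevin-fry) and deposited raw UMI counts (spliced, unspliced and ambiguous) per gene and barcode, which hold 129111 to 203102 barcodes per pool. The authors assigned hashtags with mclust and removed hashtag and scDblFinder doublets, so doublets were not called again, and the deposited metadata give cell type, cluster and the hashtag margin as a fraction for 6720 to 10247 nuclei per pool.

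The 3 kinds of counts were added and summed per sample and cell type, giving 384250 to 2095570 UMIs for the cluster 3 nuclei of a Liver sample and 106187 to 631641 for those of a Cell Suspension sample. Sums of at least 10 nuclei and genes of at least 10 counts entered edgeR 4.0.16 (glmQLFit, TMM) in R 4.3.3, with DESeq2 1.42.0 as an alternative. Fits were tested on simulated data. Exact permutation tests enumerated all sign flips with numpy 2.4.6 under Python 3.11.15. The p-values of the exact tests measure the spread of within-mouse differences over 8 mice. Those of the main fit measure the spread among the sums of a sample type, without pairing by mouse. Those of the interaction fits measure the spread of the differences between the paired sums of a sample. Hepatocyte-restricted genes had at least 50 CPM in Liver hepatocytes and at least 2-fold of every other type. Detection shares and levels cover counting error only where no spread over mice is given.

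Hashtag names give sample type and mouse number (the tag spelled CD2 was taken for CS2), and samples of 1 number were taken as the same mouse, since the study's methods take all sample types from each liver. Over 3422 genes their deviations from the group means correlated at 0.0173 to 0.335 (median 0.156), against a median of -0.0213 between different mice. In cluster 3 the assigned hashtag held a mean of 36.6% of hashtag UMIs in Liver and 37.5% in Cell Suspension. Its share was 22.4% in L2, 22.8% in CS2 and 22.3% in CS7, where pools mixed 4 samples. In hepatocytes the means were 55.7% and 50.0%, so sample calls were less clear in cluster 3. As in the study's methods, the main fit had sample type as its only term and no mouse term, but it used edgeR on Liver and Cell Suspension where the study used DESeq2 on all sample types.

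Members and lists were chosen with earlier results of these data known. Named genes were the markers, list members, the 10 largest rises and falls from Liver to Cell Suspension (called, 50 CPM or more, sample types not overlapping), up to 5 called interactions in each direction at that level, and the 10 highest ratios over other types. Alternatives were RLE scaling, other count filters, DESeq2, a mouse block, the pool, splicing state, thinned sums, nuclei per sample, hashtag margin, hepatocyte RNA, all endothelial nuclei and leaving out each mouse. For the gene tests, nuclei of at least 1000 UMIs and pools with both sample types were chosen after seeing the data. Promoter windows were taken from RefSeq, which had an entry for 4 of the 7 markers, and the letter search covered windows of 2 of the 7.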

Additional observations from a re-analysis of the deposited data

Results flagged for a closer look

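Among 55 groups of 8 samples examined for a single sample far from the rest, 4 had one, where chance flags about 1 group in 20. Plpp1 in cluster 3 of Liver was 1231 CPM (plain CPM) in L4, with the other mice between 1851 and 2304 CPM. Ier2 was highest in the same mouse, at 21.8 CPM (TMM scaled) against 8.05 to 12.6 CPM. In Cell Suspension, Klf4 was 302 CPM in CS1 against 34.0 to 126 CPM, and Rsrp1 was 117 CPM in CS3, the sample with 38 nuclei, against 152 to 180 CPM.

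The change from Liver to Cell Suspension differed by the interaction test between cluster 3 and hepatocytes, on the log2 scale, for Gm14023 (2.27), Adamts1 (2.13), Il1a (2.01), Nfkbiz (1.65), Gm12840 (1.49), Atf3 (-3.55), Actg1 (-3.15), Btg2 (-2.75), Dstn (-2.30) and Txnip (-2.17). Gm14023 went from 32.2 ± 6.91 to 108 ± 78.1 CPM in cluster 3 and from 2.36 ± 0.734 to 1.62 ± 0.491 CPM in hepatocytes. Adamts1 had 3.12 and 5.81 CPM and Il1a 0.605 and 0.532 CPM in hepatocytes. The differences of these 3 genes are against a type with low levels and are not read as a difference in response. Btg2, an antiproliferative immediate early gene, went from 15.3 ± 10.1 to 89.5 ± 52.5 CPM in cluster 3 and from 15.1 ± 5.71 to 597 ± 230 CPM in hepatocytes. Dstn, an actin depolymerising factor, went from 45.3 ± 14.9 to 87.5 ± 39.2 CPM against 63.8 ± 27.7 to 673 ± 414 CPM. The part of hepatocyte RNA in the cluster 3 rises of Atf3, Actg1, Btg2, Dstn and Txnip was not tested.

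Between cluster 3 and Kupffer cells the change differed for Celf2 (1.58), Irf1 (1.52), Cyp2c29 (1.44), Jund (1.42), Srgn (-2.50), Ndrg1 (-2.43) and Ank3 (-1.64), and for Adgrl4 with a fitted coefficient of 5.48. That last value is no bound, because Adgrl4 was listed at 0 in all 8 Kupffer sums of Cell Suspension, and it had 15.2 ± 25.1 CPM in Kupffer cells of Liver against 1382 ± 235 CPM in cluster 3. Cyp2c29 is a hepatocyte gene, at 97.0 ± 53.0 and 108 ± 63.5 CPM in cluster 3 and 136 ± 81.5 and 65.8 ± 84.3 CPM in Kupffer cells, and the part of hepatocyte RNA in its difference was not tested.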

How the results depend on the processing

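The number of genes called between Liver and Cell Suspension (447) was 242 in unspliced counts (184 of them shared with the 447), 177 in sums thinned to 1 total (161 shared), 205 in the nuclei above the median hashtag margin (68 shared, 15.2% of the 447), 213 with the pool as a covariate (159 shared), 202 with that covariate in pools with both sample types alone, and 255 to 453 leaving out each mouse. With the mouse as a replicate block, which the design supports, it was 562 (343 higher, 219 lower), 402 of them shared, and the 336 genes called in spliced counts shared 189. The 502 genes with an interaction against hepatocytes became 199 with no replicate block, 324 in unspliced counts, 104 in thinned sums, 76 above the median margin and 402 to 479 leaving out each mouse. The 14 against Kupffer cells, beside 878 at an unadjusted p under 0.05, became 6 with edgeR's own filter, 35 with none, 1 with no replicate block, 1 in thinned sums, 0 in spliced counts (622 unadjusted), 0 above the median margin (378 unadjusted), 58 without the nuclei richest in hepatocyte RNA, 35 with all endothelial nuclei, 27 with at least 30 nuclei per sample and 16 to 41 leaving out each mouse.

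Signs turned for Rsrp1 (0.93, unspliced), Erg (0.47, spliced, and 0.31, upper margin), 1110059E24Rik (0.0696, spliced), Gm15674 (0.28) and Cr1l (0.64, both upper margin), and for the interactions of Gm12840 (-0.44, unspliced), Celf2 (-0.00158, spliced) and Ndrg1 (0.76, upper margin). The causes were not tested. TMM scaling across types moved log2 levels of cluster 3 over cluster 24 to 0.16 for Ptprb, 1.01 for F8 and 1.77 for Plpp1, over cluster 26 to 1.26 for Fbxl7, and over the other endothelial nuclei to 1.56 for Fbxl7, 1.47 for Sema6a and 1.03 for F8, and thinning moved Stab2 to 6.47 and F8 over cluster 24 to 1.01. In nuclei of at least 1000 UMIs the difference from Kupffer cells was 362 UMIs and -0.0245 mitochondrial points, no longer past the threshold. Leaving out each mouse, the threshold was lost in 7 of 8 cases for the differences from hepatocytes in unspliced share (2.27 to 3.22 points) and from Kupffer cells in UMIs (320 to 501), in 6 for that from Kupffer cells in mitochondrial share (-0.0419 to -0.0318 points) and in 5 for that from leukocytes in mitochondrial share (-0.16 to -0.107 points).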
